A study of Mus musculus with 24 samples.

Results

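The miR-378 family is a group of mouse microRNAs with nearly the same mature sequence: miR-378a-3p, miR-378b and miR-378c, with miR-378a-5p from the opposite arm of the miR-378a hairpin. The members were taken by name (mmu-miR-378a-3p, mmu-miR-378b, mmu-miR-378c and mmu-miR-378a-5p in the mature table), as 4 of the 1915 mature miRNAs and 4 of the 1186 hairpins counted (mir-378a, mir-378b, mir-378c and mir-378d), in all 12 columns of both tables. The family itself was chosen by its measured counts, above all those in acetaminophen-treated hepatocytes, which were known to be above control. Its folds against control are therefore given as descriptions, without a test.

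The series asked which miRNAs mouse hepatocytes, liver and exosomes (small vesicles that cells release) hold in acetaminophen toxicity, with or without granulocyte colony-stimulating factor (G-CSF). Small RNAs of hepatocytes and of the exosomes labelled as theirs came from an untreated control, from 20 mM acetaminophen, or from 20 mM acetaminophen with 1 µg/ml G-CSF. Liver and serum exosomes came from untreated mice, from 500 mg/kg acetaminophen, or from 500 mg/kg acetaminophen with 100 µg/kg G-CSF. The 24 listed samples are 12 conditions on each of 2 sequencers, Ion Torrent PGM and Proton, but the count tables hold 1 combined column per condition. Acetaminophen plus G-CSF is called the combination below. The labels give no strain, age, time after dosing, or number of animals or cultures, and do not say whether samples were pooled.

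Without replicate columns, a fold between 2 columns compares those libraries, not the conditions, and the 95% intervals below cover counting error only. In such bulk samples, fewer cells of a type and less RNA per cell cannot be told apart.

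MicroRNAs guide a silencing complex to messenger RNAs that pair with the seed, the bases near their 5′ end, and lower the output of those messages. The gene of miR-378a lies in an intron of Ppargc1b, on the same strand. Ppargc1b encodes PGC-1β, a transcriptional coactivator of mitochondrial and lipid metabolism genes. miR-378a is known from muscle, brown fat and liver as a miRNA of energy metabolism, with the carnitine acetyltransferase gene Crat among its reported targets.

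The sequences below show why reads of these miRNAs are hard to assign. They are the RefSeq mature sequences (GRCm38.p6), 5′ to 3′, with the seed, bases 2 to 8, in capitals. The authors' own build, not given in the sources used here, may differ.
miR-378b: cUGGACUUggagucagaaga
miR-378c: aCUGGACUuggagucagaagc
miR-378d: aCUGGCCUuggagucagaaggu

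miR-378b (20 bases, chr11:88352839-88352858, + strand) and miR-378c (21 bases, chr14:46954905-46954925, − strand) share an unbroken stretch of 19 bases. Among the 1679 mature sequences of the RefSeq table used here, with miR-378a not compared, these 2 hold that stretch. It starts at base 1 of miR-378b and at base 2 of miR-378c, so the seeds are offset by 1 base. A read of those 19 bases fits both entries equally. miR-378d (22 bases, chr10:126710355-126710376, − strand) differs from miR-378c by A6C and C21G, with positions counted from the 5′ end of miR-378c and the miR-378c base written first. The first of these lies inside the seed. With miR-378a again not compared, no other mature miRNA in that table has the same seed as any of the 3.

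The hairpins differ far more outside the mature stretch, which is given in capitals here to show where the precursors can be told apart.
mir-378b: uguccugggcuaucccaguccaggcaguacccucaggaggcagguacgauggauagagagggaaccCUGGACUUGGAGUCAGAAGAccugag
mir-378c: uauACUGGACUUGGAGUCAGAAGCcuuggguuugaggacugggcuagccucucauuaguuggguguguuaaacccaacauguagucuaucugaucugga
mir-378d: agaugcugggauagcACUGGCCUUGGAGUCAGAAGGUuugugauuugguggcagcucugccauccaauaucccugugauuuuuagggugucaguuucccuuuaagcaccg

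In GENCODE M21 on GRCm38, mir-378b (chr11:88352773-88352864) lies in an intron of Msi2, which encodes an RNA-binding protein, but on the opposite strand. mir-378c (chr14:46954830-46954928) lies in an intron of Samd4, also on the opposite strand. No annotated gene spans mir-378d (chr10:126710282-126710391). Of the 4 hairpins, only mir-378a thus lies inside a gene on that gene's own strand.

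Mature counts per column totalled 26741, 5330 and 4450 in hepatocytes (control, acetaminophen, acetaminophen plus G-CSF) and 49330, 19695 and 43699 in liver. In exosomes they ran from 47 to 6515. Hepatocyte markers, led by miR-122-5p, were present in all 6 columns of hepatocytes and liver, with 4 or 5 of 5 detected and 13.97% to 42.3% of counts. The liver acetaminophen column stood apart. Its hairpin total was 5.65 times its mature total, against 25.1 to 33.7 in the other 5 columns of hepatocytes and liver. Its red blood cell markers summed to 6.53% of counts, against 0.209% in control liver.

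miR-378a-3p and miR-378c had identical counts in 12 of 12 columns, to within 0.001. In hepatocytes both stood at 126.2 counts in control, 153.8 with acetaminophen and 106.3 with the combination. In liver both stood at 552.5, 44.3 and 161.8. miR-378b was close behind, with 92.7, 138.3 and 80.3 counts in hepatocytes and 504, 38.3 and 144.3 in liver. The 3 entries summed to a whole number in all 12 columns, as reads would if each were divided equally among its matches. All 3 were at 0 in acetaminophen serum exosomes and both treated hepatocyte exosome columns, where this is automatic. Sums were only 2 in combination serum exosomes and 1 in control hepatocyte exosomes, so the pattern rests on the remaining columns. The counts of miR-378a-3p and miR-378c are therefore 1 signal entered under 2 names, and miR-378b mostly repeats it. The sum of the 3 is used below as the family count.

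If miR-378b had no reads of its own, the counts would resolve into reads divided between miR-378a-3p and miR-378c and reads divided among all 3. The first kind would make up 67 of 345 reads in control hepatocytes (19.4%, 95% Wilson interval 15.6 to 23.9). It would be 31 of 446 with acetaminophen (6.95%, 4.94 to 9.70) and 52 of 293 with the combination (17.7%, 13.8 to 22.5). In liver it would be 97 of 1609 (6.03%, 4.97 to 7.30), 12 of 127 (9.45%, 5.49 to 15.8) and 35 of 468 (7.48%, 5.43 to 10.2). The hepatocyte acetaminophen column thus lay clear of both other hepatocyte columns, and the 3 liver intervals overlapped. The part that miR-378b lacks thus ran from 6.03% to 19.4% in these 6 columns. The authors' counting rule was also not given in the sources used here.

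Family counts were 345, 446 and 293 in hepatocytes (control, acetaminophen, acetaminophen plus G-CSF) and 1609, 127 and 468 in liver. As shares of all mature counts, these were 1.29% (95% Wilson interval 1.16 to 1.43), 8.37% (7.65 to 9.14) and 6.58% (5.89 to 7.35) in hepatocytes. In liver they were 3.26% (3.11 to 3.42), 0.645% (0.542 to 0.767) and 1.07% (0.979 to 1.17). The family was thus largest in the 2 treated hepatocyte columns and smallest of these 6 in acetaminophen liver. Next after treated hepatocytes came control liver, then control hepatocytes and G-CSF liver, whose intervals overlapped. Every other step among these 6 columns was clear of counting error. miR-378a-3p ranked 25 of 284 detected miRNAs in control hepatocytes, 8 of 177 with acetaminophen and 7 of 163 with the combination. In liver it ranked 25 of 452, 58 of 326 and 57 of 416.

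**Figure D1:**
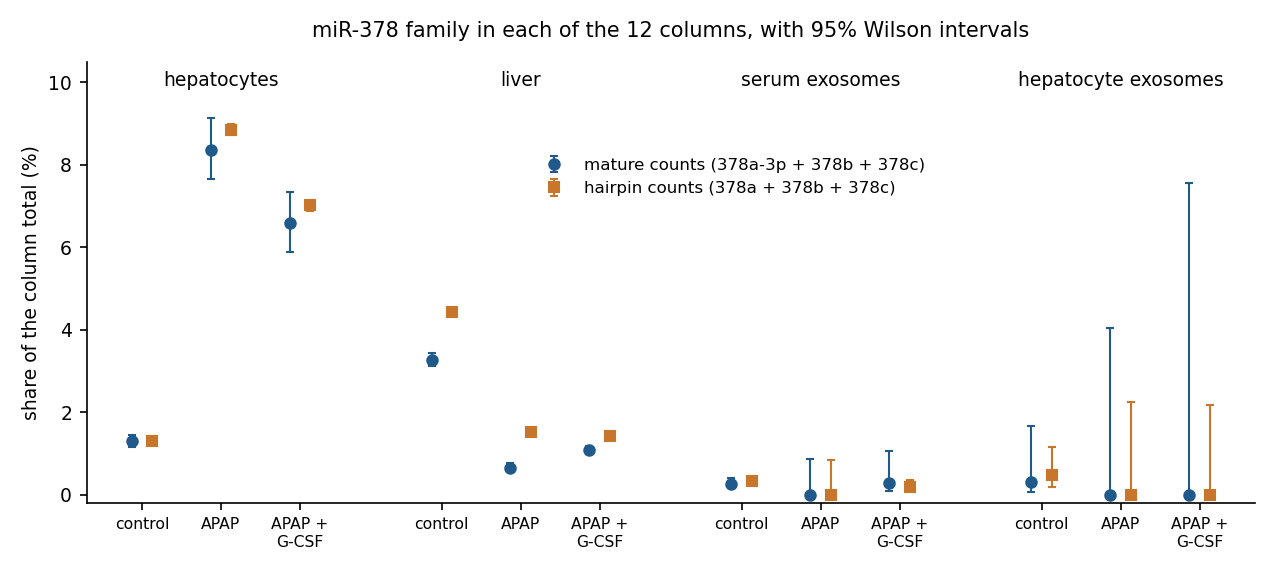
Share of the column total taken by the miR-378 family, in percent on a linear axis, in each of the 12 columns, with 95% Wilson intervals that cover counting error only (APAP, acetaminophen; blue, 3 mature miRNAs summed; orange, 3 hairpins summed). By mature counts, treated hepatocytes sit at 8.37% and 6.58%, above control hepatocytes at 1.29%, and treated livers at 0.645% and 1.07%, below control liver at 3.26%.

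For folds, counts were scaled within a material by TMM, which assumes that most miRNAs do not differ between columns. A miRNA was called different when 1 column had at least 10 counts, the fold was at least 2 and its interval excluded equality. In hepatocytes, the family was 6.80-fold higher with acetaminophen than in control (95% interval 5.90 to 7.85). miR-378a-3p and miR-378c were 6.42-fold higher (5.05 to 8.21) and miR-378b 7.86-fold higher (5.96 to 10.3). Here and below, intervals of single entries treat divided reads as whole reads, so they cover counting error only roughly. These 3 entries were among 26 of 100 measured miRNAs called higher (26%), with 27 called lower. Over the 93 of these 100 that had a fold, the median log2 fold was -0.60. miR-378b had the 8th highest and miR-378a-3p the 10th highest of 93 folds. With the combination, the family was 5.71-fold higher than in control (4.87 to 6.69), where 23% of measured miRNAs were called higher.

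Between both treated hepatocyte columns the family differed by less than the 2-fold limit. It was 1.19-fold lower with the combination (ratio 0.840, 95% interval 0.722 to 0.975). In that comparison 10.6% of 47 measured miRNAs were called higher and 17% lower, and none of the 3 family entries was among them.

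In liver the direction was the opposite. The family was 4.53-fold lower with acetaminophen than in control (95% interval 3.78 to 5.47). miR-378a-3p and miR-378c were 4.45-fold lower (3.29 to 6.24) and miR-378b 4.70-fold lower (3.41 to 6.78), among 27.5% of 160 measured miRNAs called lower. They stood 21st and 19th from the lowest fold. With the combination, the family was 3.39-fold lower than control (3.06 to 3.77), where 12.9% of 171 measured miRNAs were called lower. miR-378b and miR-378a-3p stood 8th and 9th from the lowest. This second value does not use the family counts of the liver acetaminophen column that stood apart, but its scaling was computed over all 3 liver columns.

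The G-CSF liver column was 1.33-fold higher in family counts than the acetaminophen column (95% interval 1.10 to 1.64), under the 2-fold limit. There 17.3% of 162 measured miRNAs were called higher and 13% lower. On the hairpin table this difference turned, with mir-378a, mir-378b and mir-378c together at 0.973 of the acetaminophen column (0.925 to 1.02). No difference between both treated liver columns is therefore called.

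Other cell types also differed between columns. In liver, red blood cell markers took 0.209%, 6.53% and 1.13% of counts, and leukocyte markers 0.176%, 0.642% and 0.459%. All 5 red blood cell markers were detected in each of these columns. Endothelial markers took 2.89%, 2.49% and 2.03% in liver, and 0.333%, 1.76% and 1.24% in hepatocytes, with both members detected throughout. The part these cells have in the family's values was not tested. Striated muscle, where miR-378 is abundant, left almost no trace. Of its 6 markers 0 or 1 was detected in hepatocytes and 1 to 3 in liver, summing to at most 0.0188% of a column. Brown fat markers, 1 to 4 of 4 detected, summed to 0.170%, 0.141% and 0.0449% in hepatocytes and 0.355%, 0.277% and 0.256% in liver. In treated hepatocytes these sums were 7.5 and 2 counts. Hepatocyte markers took 18.5%, 27.0% and 13.97% in hepatocytes and 27.4%, 42.3% and 14.9% in liver. These sums mostly follow miR-122-5p, which took 40.1% in acetaminophen liver against 23.6% in control. There miR-192-5p (0.782% against 1.19%) and miR-194-5p (1.06% against 2.47%) were lower. miR-148a-3p (0.203% against 0.0919%) and miR-802-5p (0.127% against 0.0243%) were higher.

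**Figure D2:**
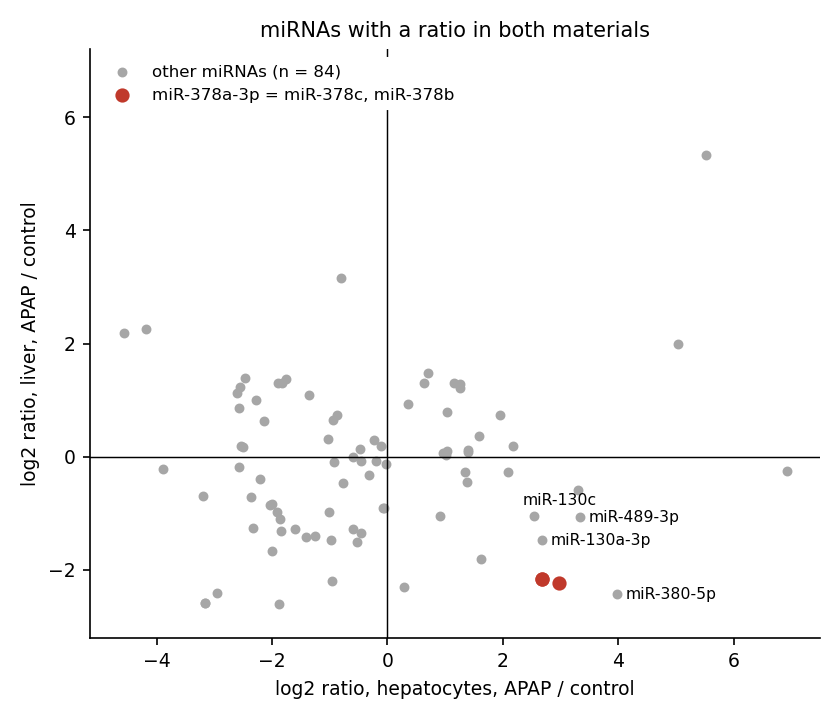
Log2 fold with acetaminophen over control in hepatocytes (horizontal axis) and in liver (vertical axis) for the 87 miRNAs with a fold in both, of which 7 are drawn at a bound because a count was 0. The miR-378 entries lie to the right of 0 and below 0, where 15 of the 87 miRNAs lie, these entries included.

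Both materials had their own control column. Of 92 mature miRNAs measured in both with acetaminophen, 25 were called higher in hepatocytes and 29 lower in liver, and 8 were both. That is 32% of the higher and 27.6% of the lower calls. Over all 92, 29 were lower in liver and 25 higher in hepatocytes, so the overlap was close to those shares. The 8 were miR-378a-3p, miR-378b, miR-378c, miR-130a-3p, miR-130c, miR-140-3p, miR-380-5p and miR-489-3p. The 3 miR-378 entries among them are largely 1 signal, and 6 miRNAs were called the opposite way round. With the combination, 6 of 95 miRNAs were both, or 26.1% of 23 higher and 40% of 15 lower calls: the same 3 miR-378 entries with miR-130c, miR-380-5p and miR-489-3p. Over all 95, 15 were lower in liver and 23 higher in hepatocytes, and 3 of the 6 are again largely 1 signal.

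miR-378a-5p, the other arm of the hairpin, stayed close to the detection limit. It had 2, 0 and 0 counts in hepatocytes and 21, 5 and 12 in liver. In liver its ratio to control was 0.667 with acetaminophen (95% interval 0.196 to 1.82) and 0.579 with the combination (0.260 to 1.23). Neither was called. The ratios of miR-378a-3p, 0.225 and 0.297, lie inside these intervals, so a difference between the arms was not detectable at this depth. In hepatocytes it did not reach 10 counts in any column, so no fold is given. In serum and hepatocyte exosomes it had at most 1 count.

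The hairpin table counts the same libraries again, with more reads per entry. mir-378a had 3745, 5309 and 3264 counts in hepatocytes and 19642, 588 and 5502 in liver. mir-378b and mir-378c again nearly equalled each other, at 3616 and 3616 in control hepatocytes and 19052 and 19059 in control liver. Together the 3 hairpins were 5.52-fold higher with acetaminophen than in control hepatocytes (95% interval 5.39 to 5.66) and 4.79-fold higher with the combination (4.66 to 4.93). Of 302 measured hairpins 30.1% were called higher in the first comparison, and of 290 in the second 27.2%. In liver they were 3.26-fold lower with acetaminophen (3.10 to 3.42) and 3.35-fold lower with the combination (3.29 to 3.41), where 19.2% of 432 and 21.8% of 458 hairpins were called lower. Directions against control were those of the mature table, and each of these 4 folds was smaller. In acetaminophen hepatocytes mir-378c, mir-378b and mir-378a had the 61st, 62nd and 67th highest of 300 folds. From the lowest fold they stood 39th, 40th and 45th of 370 in acetaminophen liver. In liver with the combination they stood 51st, 52nd and 59th from the lowest of 458. Between both treated hepatocyte columns the hairpins stood at 0.868 with the combination (0.846 to 0.890), where 7.83% of 230 hairpins were called higher and 14.3% lower.

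As shares of all hairpin counts the 3 hairpins took 1.31%, 8.85% and 7.02% in hepatocytes and 4.42%, 1.52% and 1.42% in liver. The order of the columns by this share was that of the mature table, except that the liver columns with acetaminophen and with the combination exchanged places and both stood above control hepatocytes.

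The ratio of hairpin to mature family counts gave a further view of the liver acetaminophen column. It was 31.8, 35.7 and 33.4 in hepatocytes. In liver it was 35.9 in control, 13.3 with acetaminophen and 33.2 with the combination. That column was low in hairpin counts for all miRNAs together as well, as given above.

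mir-378a exceeded the mean of mir-378b and mir-378c by a small margin. Any reads divided with mir-378d were not taken out of it, so it is not a count of mir-378a alone. The margin was 129.2 counts in control hepatocytes (3.45% of mir-378a, 95% Wilson interval 2.91 to 4.08), 13.8 with acetaminophen (0.259%, 0.154 to 0.436) and 7.75 with the combination (0.237%, 0.119 to 0.473). In liver it was 586.1 counts (2.98%, 2.75 to 3.23), 35 (5.96%, 4.31 to 8.17) and 492.8 (8.96%, 8.23 to 9.74). As a share of mir-378a it was thus lower in treated than in control hepatocytes, and higher in treated than in control liver. In hepatocytes with the combination mir-378b and mir-378c themselves differed, at 3254.4 and 3257.9 counts, beside a margin of 7.75.

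**Figure D3:**
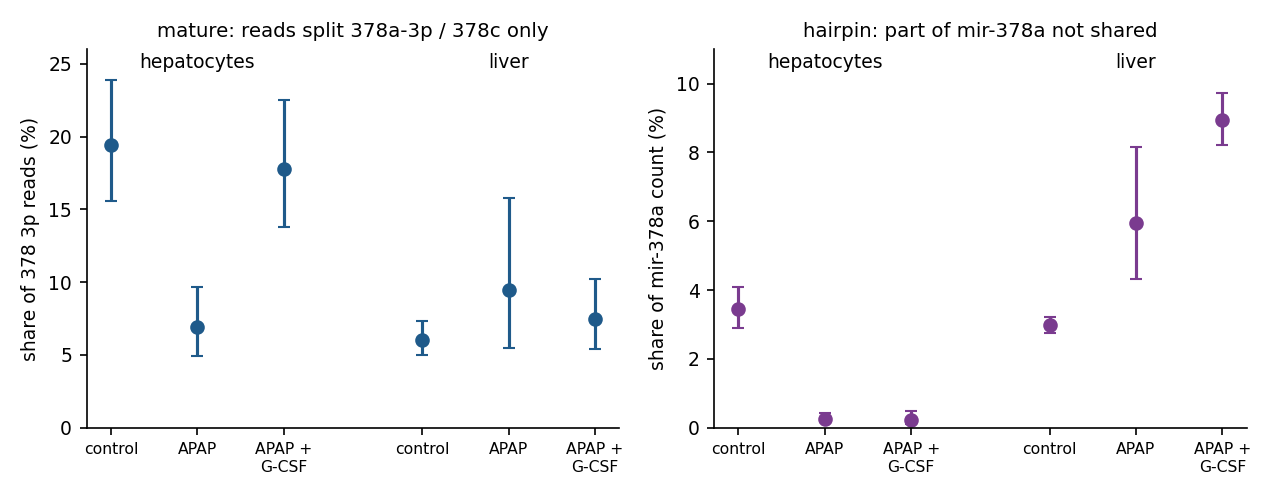
Left, share of the family's mature reads that fit miR-378a-3p and miR-378c but not miR-378b, if miR-378b had no reads of its own; right, the mir-378a margin as a share of mir-378a hairpin counts, both in percent with 95% Wilson intervals, by condition (APAP, acetaminophen). Among the hepatocyte columns the left share is lowest with acetaminophen (6.95% against 19.4% in control), while control liver stands at 6.03%. The right share stands at 0.259% and 0.237% in treated hepatocytes against 3.45% in control.

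Scaled within a material, the mir-378a margin was 2.46-fold lower with acetaminophen than in control hepatocytes (95% interval 1.39 to 4.54) and 3.10-fold lower with the combination (1.48 to 7.09). Over the same columns, the mean of mir-378b and mir-378c was 5.58-fold higher (5.35 to 5.83) and 4.85-fold higher (4.62 to 5.08). The margin and this mean thus went opposite ways in hepatocytes. This held under each scaling tried, with the margin at 0.251 to 0.497 of control with acetaminophen and 0.195 to 0.402 with the combination. In liver, the margin was 1.60-fold lower with acetaminophen (1.14 to 2.32). With the combination its ratio to control was 0.935 (0.828 to 1.06), running from 0.842 to 1.02 over the scalings, so that its direction turned. The mean of mir-378b and mir-378c was 3.29-fold lower (3.02 to 3.58) and 3.42-fold lower (3.32 to 3.53) in those columns. The margin is a difference of large divided counts and was defined after its values were seen, and which reads make it up was not tested.

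mir-378d, the hairpin with the A6C difference in its seed, was counted apart from the other 3, though its fractional counts show that some of its reads were divided too. Its mature form had 0 counts in all 12 columns, so its counts are on the hairpin alone. They were 95.6, 41.0 and 38.1 in hepatocytes and 674.0, 22.9 and 558 in liver. As a share of the 4 hairpins it made up 0.863%, 0.257% and 0.388% in hepatocytes and 1.15%, 1.34% and 3.47% in liver.

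mir-378d was 2.80-fold lower in acetaminophen liver than in control liver (95% interval 1.85 to 4.44). In G-CSF liver it stood at 0.920 of control (0.821 to 1.03) and was 2.58-fold higher than in acetaminophen liver (1.70 to 4.10), where 17.4% of 379 hairpins were called higher and 14% lower. mir-378a, mir-378b and mir-378c together were 3.35-fold lower than control in that same G-CSF liver column. In hepatocytes mir-378d was 1.63-fold higher with acetaminophen (1.10 to 2.37), under the 2-fold limit, and 2.15-fold higher with the combination (1.42 to 3.13). With no filter before scaling the latter was 1.29-fold (0.859 to 1.89), so the call rests on the scaling.

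**Figure D4:**
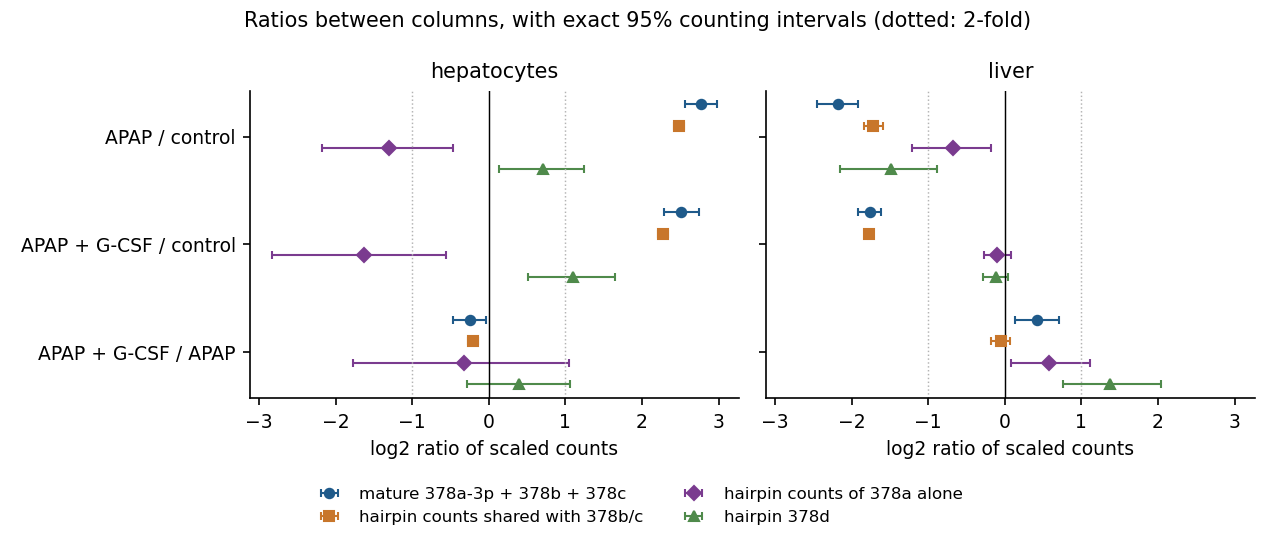
Log2 ratio of scaled counts between columns, with 95% counting intervals, for 3 comparisons in hepatocytes and in liver (APAP, acetaminophen): summed mature counts (blue), the mean of mir-378b and mir-378c hairpins (orange), the mir-378a margin (purple) and mir-378d (green). Dotted lines mark 2-fold. In treated hepatocytes the summed mature counts sit at 2.77 and 2.51 against control, while the mir-378a margin sits below 0.

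Hepatocytes and liver were compared over 3 columns each, with the 3 treatments standing in for replicates and as a block. The treatments are not replicates of a material, and the doses differ in kind (mM in the dish, mg/kg in the animal). The treated hepatocyte columns are also among the values by which the family was chosen, so its differences are given as descriptions, with no p. In edgeR's quasi-likelihood fit, miR-378a-3p had a log2 difference, hepatocytes over liver, of 2.48 (SE 1.20). miR-378b had 2.33 (SE 1.21) and miR-378a-5p -2.54 (SE 1.69). In this fit none was among the 1.67% of 180 miRNAs that passed an adjusted p of 0.05 as higher in hepatocytes or the 3.89% that passed as lower. By DESeq2's Wald test, or without either control column, miR-378a-3p, miR-378b and miR-378c did pass as higher. Those fits use the treated hepatocyte columns by which the family was chosen, so passing is no support. Passing also depended on the fit, and no conclusion about the family is drawn from it. The miR-378a-3p log2 difference was 3.81 without the hepatocyte control column and 3.44 without the liver control column, 1.38 without the liver acetaminophen column and 1.28 without the hepatocyte acetaminophen column. As the shares show, the family was higher in liver than in hepatocytes for the control columns and lower for both treated pairs.

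The miRNAs whose levels followed miR-378a-3p most closely were found by Pearson's r of log2 scaled counts over the 6 columns of hepatocytes and liver, among 109 miRNAs. The values of a column come from 1 library, of a depth that differs between columns, so the r is a description. miR-130a-3p had an r of 0.987, with 85, 104 and 66 counts in hepatocytes and 395, 51 and 196.5 in liver. miR-130c had 0.982, with 56, 62 and 47 counts in hepatocytes and 237, 41 and 109.5 in liver. Once scaled, both were called higher in treated than in control hepatocytes and lower in treated liver, except that miR-130a-3p in liver with the combination was 1.98-fold lower, under the 2-fold limit. miR-489-3p (r of 0.947) had 29, 56 and 19 counts in hepatocytes and 70, 12 and 34 in liver. miR-380-5p followed at 0.897, with 19, 57 and 47 counts in hepatocytes and 45, 0 and 12 in liver. miR-155-5p, a miRNA of immune activation, followed at 0.890, with 2, 46 and 26 counts in hepatocytes and 10, 0 and 10 in liver. By Spearman's rho, miR-130a-3p and miR-489-3p were highest, at 1 each, miR-130c followed at 0.943, and miR-192-5p replaced miR-380-5p among the first 5. On the hairpin table mir-130c had the highest r, 0.947, followed by mir-6937 and mir-130a.

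Among other miRNAs that lie in or near metabolic genes, miR-103-3p and miR-107-3p sit in introns of pantothenate kinase genes and miR-33-5p in Srebf2, a regulator of sterol synthesis. miR-103-3p and miR-107-3p had equal counts and so form 1 signal. In hepatocytes, where miR-378 was higher with treatment, they were lower. They had 236.5 counts in control and 5 with acetaminophen, a difference of 8.99-fold (95% interval 3.79 to 27.9). With the combination they had 5.5 counts and were also called lower. In liver they had 1095, 65 and 608.5 counts, were called lower with acetaminophen, and were 3.39-fold higher with the combination than with acetaminophen (2.62 to 4.45). Of this list of 3, miR-33-5p did not reach 10 counts, so 2 of 3 were measured, with a median log2 fold of -3.17 in acetaminophen hepatocytes and -2.59 in acetaminophen liver.

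A list of 20 miRNAs linked to hepatic lipid and energy metabolism had no common direction. In acetaminophen hepatocytes 15 were measured, with 5 higher, 4 lower and a median log2 fold of -0.07. It was -0.60 over the 93 miRNAs with a fold. Medians here leave out measured miRNAs that had no fold. Those higher were miR-30c-5p (9.86-fold), miR-130a-3p (6.44-fold), miR-29a-3p (3.86-fold), miR-192-5p (2.61-fold) and miR-148a-3p (2.23-fold). Those lower were miR-21a-5p (18.1-fold), miR-103-3p and miR-107-3p (8.99-fold) and miR-34a-5p (3.99-fold). Hepatocytes with the combination had 3 higher and 7 lower of 15 against control (median -1.06), beside 23% higher and 29% lower of all measured (median -0.68). Against acetaminophen they had 2 higher and 1 lower of 12 (median -0.69), beside 10.6% and 17% of all measured (median -0.11). In liver 18 were measured, with 5 higher and 4 lower with acetaminophen (median -0.20), beside 23.1% and 27.5% of all measured (median -0.25). With the combination 3 were higher and 1 lower (median 0.09), beside 15.8% and 12.9% (median -0.04). The combination against acetaminophen gave 3 higher and 3 lower in liver (median 0.16), beside 17.3% and 13% (median 0.29). Wherever measured, miR-103-3p and miR-107-3p enter these counts as 2, though they form 1 signal. The 7 lower in combination hepatocytes also hold miR-27a-3p and miR-27b-3p, with 4.5 counts each against 81.8 and 82.8 in control.

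Exosomes held little of the family. For serum exosomes the title of both treated samples conflicts with their treatment label, so acetaminophen and acetaminophen plus G-CSF may be exchanged, and the treatment label is used here. Family counts were 16 in control serum exosomes (0.246%, 95% Wilson interval 0.151 to 0.399), 0 with acetaminophen and 2 with the combination (0.289%, 0.0793 to 1.05). In the acetaminophen column 0 of 436 counts allows a share of up to 0.688%, above the control share, so a difference was not detectable at this depth. The ratio of the combination to control was 1.18 (0.131 to 5.01) and was not called, where 34.1% of 44 miRNAs were called higher and 18.2% lower.

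The hairpin table gave control serum exosomes 602.9 family counts (0.333%, 0.307 to 0.360), against 0 of 460.3 with acetaminophen, which allows up to 0.652%, and 7 with the combination (0.174%, 0.0842 to 0.359). The control interval overlapped that of the combination. Scaled by TMM, the 3 hairpins were at least 31.2-fold lower with acetaminophen than in control, where 57.6% of 198 hairpins were called lower. With the combination their log2 fold was -6.54, where 74.4% of 242 were called lower. The shares do not show differences of that size, so these folds rest on the scaling. In hepatocyte exosomes the family had 1 of 335 counts in control (0.299%, 0.0527 to 1.67) and 0 in both treated columns, which allows up to 3.297% and 6.38%. On hairpins it had 4.25 of 910.7 counts in control (0.467%, 0.187 to 1.16) and 0 in both treated columns, which allows up to 1.79% and 1.74%. These limits lie below the family's shares in the treated hepatocytes themselves, but for mature counts with the combination only barely. There 6.38% lies inside the hepatocyte interval (6.58%, 5.89 to 7.35), and the Wilson upper limit for 0 of 47 counts is 7.56%. Treated and control exosomes could not be told apart at this depth.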

How the data were processed

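Small RNAs of 12 conditions were sequenced on 2 instruments. The values used are estimated counts per mature miRNA and per hairpin as deposited, in part fractional and not scaled, with 1 column per condition combining both instruments, per the file headers. Neither an aligner nor an annotation is named, and the build was likewise not given in the sources used here. Columns were matched to samples by title. The family, the lists and the rules were chosen with earlier results of these data known.

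Counts were scaled within a material by TMM (edgeR 4.0.16, R 4.3.3) after keeping miRNAs with at least 10 counts in a column. Column totals were used where under 20 miRNAs had a count in all 3 columns, which held for mature serum exosomes and for hepatocyte exosomes. Ratios have exact conditional (Clopper-Pearson) 95% intervals from unscaled counts rounded to whole numbers, and shares have Wilson intervals (scipy 1.17.1). PCR reads are not independent molecules, so both cover counting error only. A count of 0 was read as up to 3 counts. The planned instrument block was not possible with combined columns.

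Hepatocytes and liver were compared by edgeR's quasi-likelihood test on counts rounded to whole numbers, with treatment as block and Benjamini-Hochberg adjustment. This test and the ratio intervals were tried on simulated whole-number counts, but the rule for calling folds was not. Alternatives were DESeq2 1.42.0 size factors, its Wald test, column totals, other filters, hairpin counts and left-out columns. Named miRNAs are the family, the 5 with the highest r, and the members of 2 metabolic lists called in acetaminophen hepatocytes. Marker lists are those of hepatocytes, striated muscle, brown fat, red blood cells, leukocytes, endothelium, and stellate and smooth muscle. Those of stellate and smooth muscle cells summed to 0.00686%, 0.166% and 0.0187% of counts in hepatocytes and 2.29%, 1.81% and 2.34% in liver, and leukocyte markers to at most 0.0225% in hepatocytes. Red blood cell markers summed to at most 0.0188% in hepatocytes.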

Additional observations from a re-analysis of the deposited data

Results flagged for a closer look

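The summed counts of miR-378a-3p, miR-378b and miR-378c went opposite ways in hepatocytes and liver relative to each material's own control. In hepatocytes the log2 fold was 2.77 with acetaminophen and 2.51 with acetaminophen plus G-CSF. In liver it was -2.18 and -1.76. Both treated columns of a material share 1 control column, so these are not 4 independent values. The difference between the materials was not tested, since each condition has 1 column.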

How the results depend on the processing

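The ranges here cover mature counts under the scalings and filters tried, and hairpin counts at the main scaling only. Against control, the log2 fold of the summed family ran from 2.20 to 3.3 in acetaminophen hepatocytes and from 2.10 to 3.17 with the combination. In liver it ran from -2.44 to -1.70 and from -1.77 to -1.61. All of these kept their direction and their call. Hairpins under other scalings went outside these ranges in the same directions. With no filter, the mean of mir-378b and mir-378c was 3.46-fold higher in acetaminophen hepatocytes and 2.93-fold higher with the combination. With a minimum of 20 counts, it stood at 0.263 of control in liver with the combination. G-CSF against acetaminophen liver (log2 0.42) was 0.73 with column totals and -0.040 on hairpins, where it turned. Serum exosomes with G-CSF against control (log2 0.24, 2 against 16 counts) were at -6.54 on hairpins, with mir-378a at -5.76, mir-378b at -7.75 and mir-378c at -6.75. TMM over the serum hairpins set that size, since the shares were 0.174% and 0.333%. For hepatocytes against liver, miR-378a-3p had a log2 difference of 2.57 by DESeq2 and 1.28 to 3.81 with 1 column left out. The highest were those without the hepatocyte control (3.81) and the liver control (3.44). With no replicate block, so without the pairing by treatment, edgeR gave 2.28. miRNAs past the threshold numbered 10, against 15 with no block, 29 by DESeq2, 56 on hairpins, 4 with all 12 columns and 0 to 45 with 1 column left out.

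The scaling also moved the split of calls over all miRNAs. Acetaminophen hepatocytes had 26 higher and 27 lower, against 30 and 20 with DESeq2 size factors (median moved by 0.53 log2) and 17 and 46 with no filter (-0.57). With the combination, 23 and 29 became 27 and 17 with DESeq2 size factors (0.65). Acetaminophen liver had 37 and 44, against 27 and 50 with column totals and 25 and 54 with no filter. G-CSF against acetaminophen liver had 28 and 21, against 44 and 15 with totals, 43 and 15 with no filter, 23 and 30 with DESeq2 size factors, and 23 and 31 with miR-30c-5p and miR-122-5p left out of scaling. G-CSF against control liver had 27 and 22, or 29 and 15 with totals. With miR-122-5p, miR-21a-5p and miR-30c-5p left out of the totals, family shares were 2.03%, 12.7% and 11.7% in hepatocytes and 4.46%, 1.16% and 1.29% in liver. No mature fold could be given for acetaminophen serum exosomes, for their exchanged labels, or for treated hepatocyte exosomes, where counts were 0. On hairpins the acetaminophen serum value was a bound, at least 31.2-fold lower.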
